A study of Mus musculus with 12 samples.

Results

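The genes of fatty acid and triglyceride synthesis were followed through 12 arrays of mouse liver RNA. They comprise 36 genes, picked by name, of 34797 genes on the array, and all 36 were among the 21238 genes tested. A gene was found by the gene name in the array files and was represented by its brightest probe. In 34 of the 36 genes that probe was well above background on all 12 arrays, whereas Mogat1 reached that level on 11 arrays and Pnpla3 on 8. The genes fall into 7 roles: transcription factors (4 genes), the supply of carbon and acetyl-CoA (5), the supply of NADPH (5), fatty acid chain synthesis (4), elongation and desaturation (7), fatty acid activation (2) and triglyceride assembly (9).

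The liver turns surplus carbohydrate into fat by a chain of cytosolic enzymes. Citrate leaves the mitochondrion, is split to acetyl-CoA, carboxylated to malonyl-CoA and built into palmitate by fatty acid synthase, with NADPH as the reducing agent. Palmitate is then activated with coenzyme A, elongated, desaturated and joined to glycerol phosphate to give triglyceride. Transcription of these genes is governed by SREBP-1c (encoded by Srebf1), by the carbohydrate sensor ChREBP (encoded by Mlxipl) and by the oxysterol receptors LXR alpha and LXR beta (Nr1h3 and Nr1h2), and is high after feeding and low in fasting.

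The mice were wild-type ICR males, 5 weeks old when bought and adapted for 1 week. Vehicle mice drank water. Diethylnitrosamine (DEN), a carcinogen that alkylates DNA in the liver, was dissolved in that water at 80 mg/L, for a daily intake near 400 µg. All-trans retinoic acid (ATRA), through which vitamin A acts on its nuclear receptors, was dissolved at 30 mg/L, for a daily intake near 150 µg, and the ATRA+DEN mice had both. Control siRNA (scrambled) or siRNA against G0s2, an inhibitor of triglyceride lipolysis, was injected into a vein (1.6 nmol in a lipid carrier). The protocol sets that injection 1 day before DEN, but the labels of the siRNA arrays do not say whether these mice then drank DEN or ATRA. Each of the 6 treatments was sampled at day 2 and at day 7 with 1 array per group, so there are 12 groups and no replicates. Whether an array holds 1 animal or a pool is not stated. Errors are therefore given only for effects averaged over pairs of arrays, and a level or a difference of single arrays carries none.

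Levels are log2 processed intensities minus the array's 75th percentile, so a level of 0 lies at that percentile. The share of probes well above background ran from 41.0% to 50.7% per array. The arrays sit on 4 slides. The day-2 arrays without siRNA share slide 1 and the day-2 siRNA arrays slide 2. At day 7, vehicle and DEN share slide 3, and slide 4 carries ATRA, ATRA+DEN and both siRNAs. Day and slide therefore cannot be told apart. For 3 day-7 arrays the labelled treatment disagrees with the title, and titles are used. The array titled DEN is otherwise labelled ATRA, that titled ATRA+DEN is labelled DEN, and that titled ATRA is labelled ATRA+DEN. Cyp26a1, the retinoic acid hydroxylase that retinoic acid induces, stood at 6.63 and 6.40 in the day-2 arrays with ATRA and at 0.42 and 1.87 in those of vehicle and DEN. At day 7 it stood at 2.38 in vehicle, 1.35 in the array titled DEN, 7.10 in that titled ATRA and 4.34 in that titled ATRA+DEN. In the arrays with control and G0s2 siRNA it stood at 0.43 and 0.75 at day 2 and at 0.92 and 1.55 at day 7. Cdkn1a, the cell cycle inhibitor p21 that p53 induces after DNA damage, stood at 1.12 in vehicle, 2.13 in ATRA, 4.02 in DEN and 3.39 in ATRA+DEN at day 2. Its day-7 levels were 6.83 and 6.62 in the arrays titled DEN and ATRA+DEN, against 1.96 with vehicle and 2.84 under the title ATRA. With control and G0s2 siRNA it stood at 4.00 and 3.37 at day 2 and at 5.56 and 6.82 at day 7. By title, every array with DEN was above the vehicle and ATRA arrays of its day in Cdkn1a, and so were the siRNA arrays. The level of G0s2 with its siRNA minus that with control siRNA was -1.85 at day 2 and -1.19 at day 7.

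All 9 hepatocyte markers were well above background on all 12 arrays. Of 11 fat cell markers, between 5 and 7 passed that level per array, and Adipoq and Plin1, which define fat cells, were so on none. The vehicle array of day 2 stood apart in pancreatic acinar transcripts. All 10 acinar markers were well above background there against 3 to 5 on the other arrays, with their summed level (in multiples of the 75th percentile) at 48.4 against 6.60 to 26.8. The 26.8 lies in the G0s2 siRNA array of day 7, where Amy2a5 stood at 4.53. Cela3b, Cpa1, Cpb1, Pnlip and Prss2 were well above background in that vehicle array alone. In whole liver, fewer cells of a type and less RNA per cell cannot be told apart.

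The promoters of the genes with the widest swings are shown first, so that they can be set side by side. Among them, Lpin1 went the other way in the day-7 siRNA arrays but not in the ATRA+DEN array of day 2. RefSeq's promoter table (build GRCm38.p6) held 32 of the 36 genes, and Dgat1, Dgat2, Fads1 and Scd1 had no entry in it. Each sequence is the 250 bases before the annotated start, 5′ to 3′ on the gene's strand. Capitals mark matches, on either strand, to the CCAAT box (CCAAT) and to the GC box (GGGCGG).
Pnpla3 (chr15:84167566-84167815, plus strand): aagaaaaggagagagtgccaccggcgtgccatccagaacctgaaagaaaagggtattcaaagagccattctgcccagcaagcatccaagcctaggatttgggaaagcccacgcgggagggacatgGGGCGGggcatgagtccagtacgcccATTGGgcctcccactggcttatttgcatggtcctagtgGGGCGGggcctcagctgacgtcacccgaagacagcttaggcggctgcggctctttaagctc
Lpin1 (chr12:16610967-16611216, minus strand): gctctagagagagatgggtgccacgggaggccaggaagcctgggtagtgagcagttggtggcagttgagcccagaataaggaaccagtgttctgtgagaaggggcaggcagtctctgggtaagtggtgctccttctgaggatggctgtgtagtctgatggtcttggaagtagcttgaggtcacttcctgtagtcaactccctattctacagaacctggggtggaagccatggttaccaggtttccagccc
Aacs (chr5:125475623-125475872, plus strand): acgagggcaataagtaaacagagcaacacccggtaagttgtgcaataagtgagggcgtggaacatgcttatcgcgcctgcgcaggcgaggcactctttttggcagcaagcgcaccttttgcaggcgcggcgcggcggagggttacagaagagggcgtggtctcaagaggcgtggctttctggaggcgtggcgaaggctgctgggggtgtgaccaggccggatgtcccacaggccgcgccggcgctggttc
Fasn (chr11:120824548-120824797, minus strand): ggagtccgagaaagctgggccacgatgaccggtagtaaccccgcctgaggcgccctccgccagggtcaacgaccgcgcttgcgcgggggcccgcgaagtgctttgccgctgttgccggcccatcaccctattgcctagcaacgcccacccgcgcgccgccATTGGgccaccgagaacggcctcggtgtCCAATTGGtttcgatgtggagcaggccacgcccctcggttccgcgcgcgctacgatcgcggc
Elovl6 (chr3:129532136-129532385, plus strand): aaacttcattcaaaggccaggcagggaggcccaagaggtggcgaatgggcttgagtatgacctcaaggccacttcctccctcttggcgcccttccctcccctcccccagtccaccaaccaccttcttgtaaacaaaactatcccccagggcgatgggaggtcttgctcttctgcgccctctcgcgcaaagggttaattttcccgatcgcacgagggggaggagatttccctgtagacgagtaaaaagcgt
Acacb (chr5:114165268-114165517, plus strand): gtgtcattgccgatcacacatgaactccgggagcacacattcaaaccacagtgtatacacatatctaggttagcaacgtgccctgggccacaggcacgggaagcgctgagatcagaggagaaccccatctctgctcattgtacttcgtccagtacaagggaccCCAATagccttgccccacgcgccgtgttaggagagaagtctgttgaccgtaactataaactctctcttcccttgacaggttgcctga

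Fasn, the gene of fatty acid synthase, held 3 CCAAT matches, and those at -62 and -59 overlap on opposite strands. Pnpla3 held 1 CCAAT match and 2 GC boxes, and Acacb held 1 CCAAT match. In Lpin1, Aacs and Elovl6 none of the searched motifs was found in this window. Over the 32 promoters, 13 held a CCAAT match (40.6%), against 33.8% of 32851 promoters of the same length. A GC box was in 16 of the 32 (against 32.7% of all). An E-box of the letters CACGTG, which ChREBP and USF factors can bind, was in Slc25a1, Elovl5 and Lpin2 (9.38%, against 6.02%). A sterol regulatory element of the letters TCACNCCAC, searched on both strands, was in Mlxipl alone (3.12%, against 1.05%).

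The members split into steady and widely moving genes. The log2 range over the 12 arrays was 7.75 in Pnpla3, 4.95 in Lpin1, 4.31 in Aacs, 3.99 in Fasn and 3.76 in Elovl6, which lie at percentiles 99.9, 98.9, 97.9, 97.1 and 96.1 of the ranges of all tested genes. At the other end were 7 genes with a range of 0.56 to 0.72, at percentiles 3.9 to 11.0. They were the receptors Nr1h2 and Nr1h3, the pentose phosphate enzymes Tkt and Taldo1, the elongase Elovl2 and the acyltransferases Agpat2 and Agpat3. A pair of conditions held most of the lowest values. The ATRA+DEN array of day 2 was the lowest of the 12 for 14 members (10.5% of all genes were lowest there), and the G0s2 siRNA array of day 7 for 12 members (10.9% of all genes). The median member stood 0.58 below its own mean in the ATRA+DEN array of day 2, at -0.58, where the median of all genes stood at -0.06. It stood at -0.27 in the control siRNA array and -0.22 in the G0s2 siRNA array of day 7, against 0.02 and 0.08 for all genes.

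**Figure D1:**
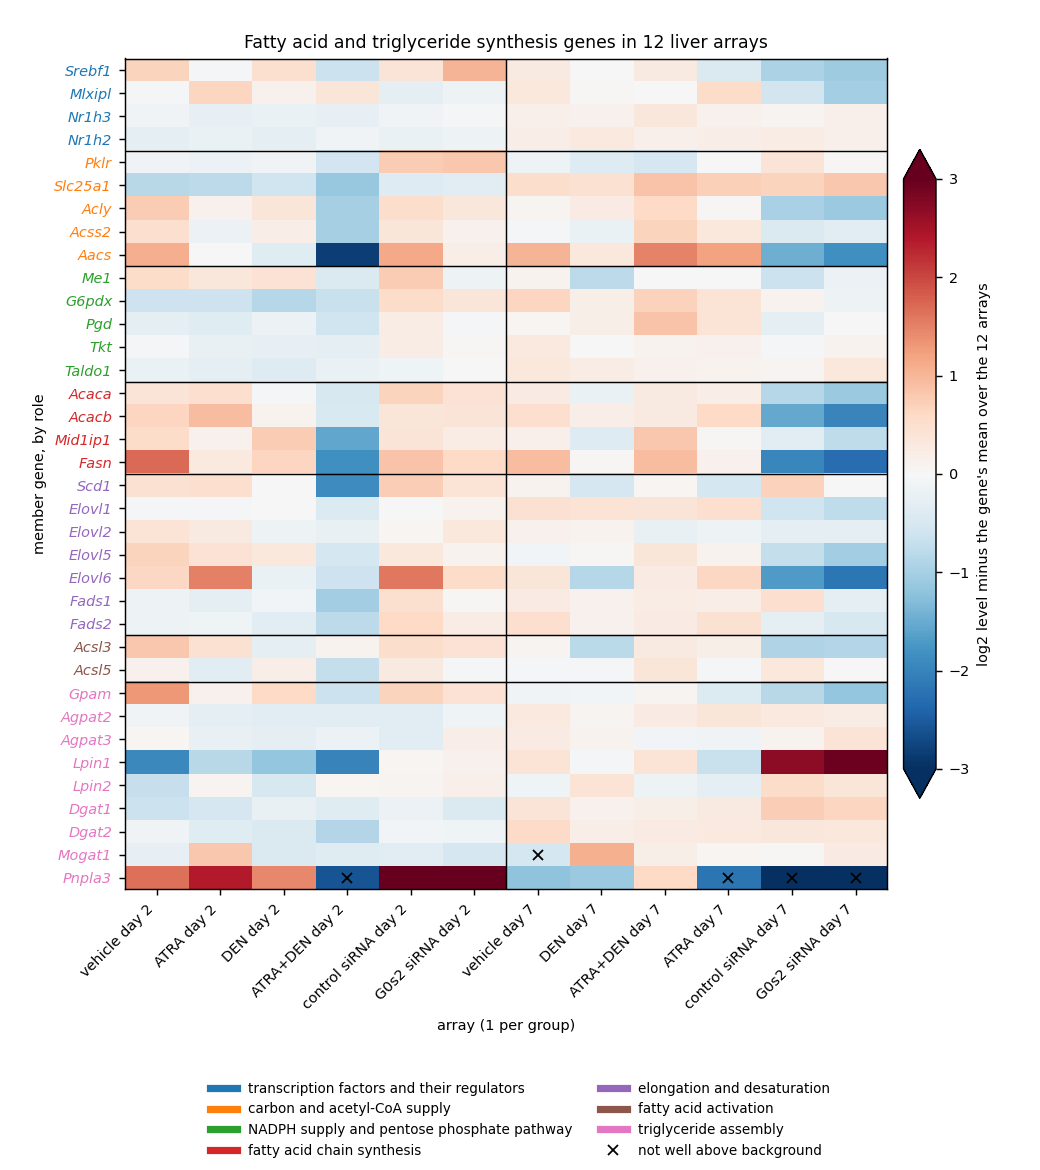
Log2 level of each of the 36 genes minus its own mean over the 12 arrays (colour, from -3 to 3), with genes in rows by role and arrays in columns, day 2 left of the line and day 7 right of it. The blue columns are ATRA+DEN at day 2 (median -0.58) and both siRNA arrays at day 7 (medians -0.27 and -0.22), Lpin1 is red in the day-7 siRNA arrays, and crosses mark values not well above background.

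On slide 1, where the 4 day-2 arrays without siRNA lie together, the array with both agents was the lowest of the 4 for 26 of the 36 members. The same held for 26.3% of all genes tested. Against vehicle, 31 members were lower in ATRA+DEN (55% of all genes) and 12 were lower by 2-fold or more, where 3.28% of all genes were. The members' median difference was -0.67, against -0.05 for all genes. These are differences between single arrays and have no test.

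Fasn (probe on chromosome 11, 120667666 to 120667725, build mm9) stood at 3.69 in vehicle, 2.27 in ATRA, 2.62 in DEN and 0.15 in ATRA+DEN at day 2, so that the last was 11.6-fold below vehicle. Each agent alone lay between those ends. Acaca and Acacb, the acetyl-CoA carboxylases that make malonyl-CoA, gave in the same order 5.02, 5.12, 4.59 and 4.14, and 4.93, 5.22, 4.40 and 3.85. ATRA alone was not below vehicle for either carboxylase. Mid1ip1, a protein that promotes polymerization of the carboxylases, stood at 5.59, 5.16, 5.79 and 3.48, so that the combined array alone was far below the others. All 4 genes of chain synthesis were lowest with both agents, with a median difference from vehicle of -1.60.

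All 5 genes of carbon and acetyl-CoA supply were lower in ATRA+DEN than in vehicle at day 2 (median -1.48). Aacs, acetoacetyl-CoA synthetase (chromosome 5, 125997524 to 125997583, mm9), stood at 5.77 in vehicle, 4.69 in ATRA, 4.32 in DEN and 1.85 in ATRA+DEN, which is 15.1-fold below vehicle. Acly, ATP citrate lyase, stood at 6.98, 6.34, 6.58 and 5.21, and Acss2, which activates acetate, at 4.79, 4.12, 4.50 and 3.31. In all of these the combined array was below both single agents. Slc25a1, the citrate carrier, differed by -0.31 and the pyruvate kinase gene Pklr by -0.47.

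All 7 genes of elongation and desaturation were lower with both agents than in vehicle (median -0.90). Scd1, the stearoyl-CoA desaturase (chromosome 19, 44469387 to 44469446, mm9), stood at 7.46 in vehicle, 7.49 in ATRA, 6.98 in DEN and 5.10 in ATRA+DEN. In the other 11 arrays Scd1 lay between 6.46 and 7.73, so the combined array of day 2 was apart from all the rest. Elovl6, which extends palmitate, stood at 5.04, 5.93, 4.23 and 3.80, with ATRA alone above vehicle. Fads1 and Fads2, the desaturases of polyunsaturated fatty acids, stood at 3.36, 3.25, 3.42 and 2.46, and at 2.52, 2.54, 2.33 and 1.87.

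Triglyceride assembly was divided. Gpam, the mitochondrial acyltransferase of the opening step, stood at 2.55 in vehicle, 1.39 in ATRA, 1.85 in DEN and 0.61 in ATRA+DEN. Pnpla3, a lipid droplet protein, stood at 0.64, 1.37 and 0.43 in the other 3 arrays and was not well above background in ATRA+DEN, at least 18.8-fold below vehicle. This bound is the brighter level over the higher of the dim probe's own level and the lowest level well above background on its array. For the 18.8-fold value the probe's own level was the higher. That bound is thus the measured ratio and rests on a level not well above background. Lpin2, a phosphatidate phosphatase, was the other way, at 0.81 in vehicle and 1.59, 1.02 and 1.56 in ATRA, DEN and ATRA+DEN. Lpin1 stood at -0.62 in vehicle, 0.47 in ATRA, 0.15 in DEN and -0.70 in ATRA+DEN, its lowest level of the 12 arrays. The acyltransferase Dgat2, which completes triglyceride, differed from vehicle by -0.77 and Dgat1 by 0.28. Of the 9 genes, 7 were lower and the median difference was -0.21.

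The NADPH genes moved less. Me1, malic enzyme, stood at 5.21, 5.00, 5.10 and 4.23, whereas G6pdx and Pgd, which open the pentose phosphate pathway, differed from vehicle by -0.04 and -0.30. Of the transcription factors, Srebf1 (chromosome 11, 60012664 to 60012723, mm9) stood at 3.41 in vehicle, 2.72 in ATRA, 3.22 in DEN and 2.11 in ATRA+DEN. Mlxipl was higher with ATRA in both arrays, at 6.38, 7.05, 6.53 and 6.76, and Nr1h3 and Nr1h2 differed from vehicle by -0.15 and 0.17.

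Values of other cell types on slide 1 moved too. The summed level of 7 cholangiocyte markers was 3.48 in ATRA+DEN against 1.81 to 1.83 in the other 3 arrays, with 6 against 3 to 5 of the markers above background. That of 7 stellate cell markers was 16.8 against 6.97 to 13.7. Hepatocyte markers summed to 7370 in ATRA+DEN, 7680 in DEN, 8370 in ATRA and 9600 in vehicle, and red cell markers to 95.8, 96.4, 225 and 590. Their part in the result was not tested. The part of the pancreatic transcripts in the vehicle array was not tested either. The combined array was below both the ATRA and the DEN array for 26 of 36 members (32.4% of all genes), the same 26 that were lowest of the 4 arrays.

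**Figure D2:**
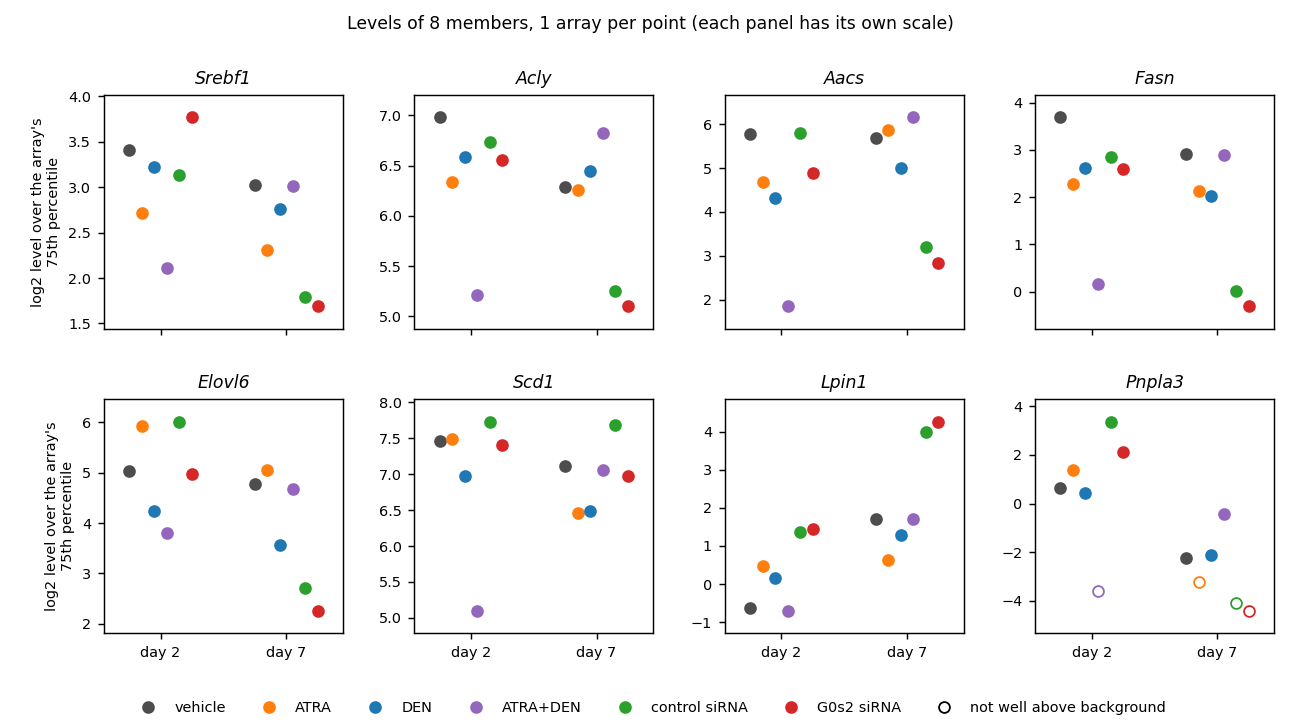
Log2 level over the array's 75th percentile for 8 genes at day 2 and day 7, 1 point per array, coloured by treatment, with open points not well above background. Fasn reaches 0.15 in ATRA+DEN at day 2 and 0.02 and -0.31 in the siRNA arrays at day 7, while Lpin1 reaches 4.00 and 4.26 in those siRNA arrays.

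DEN asks what a genotoxic carcinogen changes within days. Averaged over the 4 pairs of arrays that differ in DEN, 28 of 36 members were lower (54.2% of all genes were), with a median of -0.22 against -0.02 for all genes. At day 2 the pair median was -0.20 in the absence of ATRA and -0.55 in its presence, and at day 7 these were -0.23 and 0.11. The median was -0.07 without the ATRA+DEN and ATRA pair of day 2. Lower in all 4 pairs were 8 members (12.6% of all genes), namely Acacb, Agpat2, Dgat2, Elovl2, Elovl6, Fads2, Pklr and Tkt, and higher in all 4 was none (9.16% of all genes). By limma no member passed after Benjamini-Hochberg adjustment over all genes, and neither did any other gene (2607 of all genes had an unadjusted p under 0.05). At an unadjusted p under 0.05 there were 6 lower members (6.80% of all genes), which were Acaca, Acacb, Acsl3, Dgat2, Elovl6 and Fads2, and no higher member (5.47% of all genes).

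Elovl6 had the lowest adjusted p of the members for DEN, which did not pass. Its levels were 4.23, 3.80, 3.56 and 4.67 with DEN against 5.04, 5.93, 4.78 and 5.05 in the matched arrays without. Among the arrays without siRNA, all 4 with DEN lay below all 4 without it, and the log2 difference was -1.14 (SE 0.29, adjusted p = 0.28 by limma). The share of all genes whose groups part in this way was not counted. Aacs differed by -1.17 (SE 0.48, adjusted p = 0.408), but was higher in the ATRA+DEN than in the ATRA array at day 7. Acacb differed by -0.63 (SE 0.21, adjusted p = 0.347), from -1.38 to -0.30 in the pairs. Dgat2 differed by -0.31 (SE 0.10, adjusted p = 0.351) and Fads2 by -0.37 (SE 0.12, adjusted p = 0.33). With the day-7 arrays grouped by their labelled treatment in place of the title, Elovl6 differed by -0.40 (adjusted p = 0.976 by limma), and its groups overlapped. Under that grouping Fads2 differed by -0.20, Acaca by -0.25 against -0.45, and Acsl3 by -0.07 against -0.55. Without the ATRA+DEN and ATRA pair of day 2, Acaca differed by -0.27 and Acacb by -0.38. Dgat2 differed by -0.20 with the authors' normalized values.

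Against vehicle alone, DEN arrays were 2-fold or more lower for 3 members at day 2 (3.67% of all genes), which were Aacs at 2.73-fold, Acsl3 at 2.12-fold and Fasn at 2.09-fold. At day 7 that held for Elovl6 alone, at 2.33-fold (6.06% of all genes). Acsl3, a long-chain acyl-CoA synthetase, stood at -0.36 and -0.88 with DEN against 0.72 and 0.01 with vehicle, at day 2 and day 7. Mogat1, a monoacylglycerol acyltransferase, was higher instead at day 7, not well above background in vehicle and at -1.48 in the array titled DEN, at least 3.05-fold higher. That bound is the measured ratio and rests on the dim vehicle level. Red cell markers summed to 96.4 and 95.8 with DEN against 590 and 225 without it at day 2. At day 7 the sums were 59.9 and 137 against 141 and 85.7. Of 5 tested markers, 4 were lower with DEN and 1 higher, and none passed. Hbb-b1, Hba-a1 and Hba-a2, the globin genes, differed by -2.15, -2.06 and -1.97, and Alas2 by 2.04. In the ATRA+DEN and ATRA arrays of day 7, Alas2 stood at 6.53 and 2.83, and Hba-a2 at 5.06 and 5.85. The part of these markers was not tested.

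**Figure D3:**
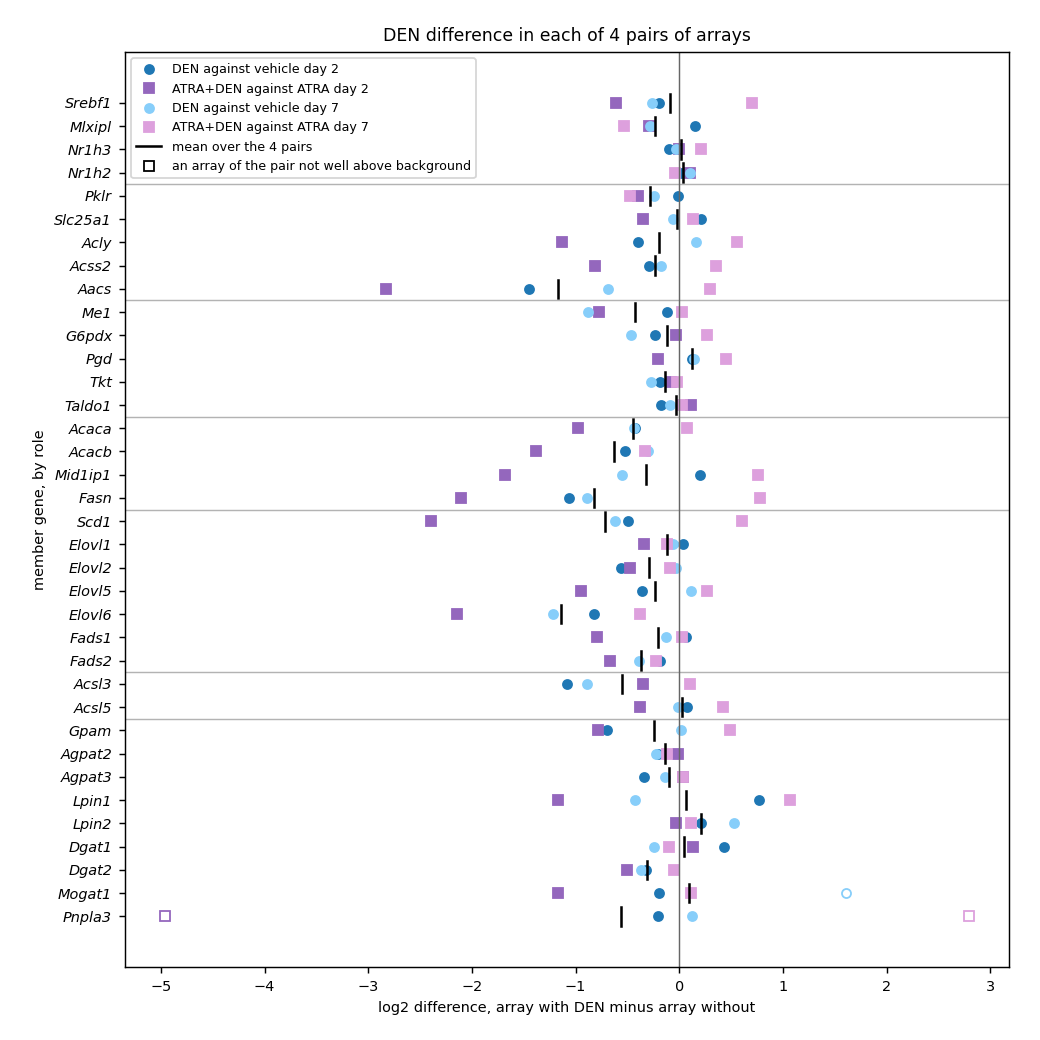
Log2 difference between the array with DEN and the matched array without it, for each of the 36 genes (rows, by role) in 4 pairs, with the mean as a black bar. Most marks of day 2 with ATRA lie left of 0 (median -0.55), those of day 7 with ATRA lie on both sides (median 0.11), and Elovl6 lies left of 0 in all 4 pairs.

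ATRA was compared over the 4 pairs of arrays that differ in it. The day-2 pairs lie on slide 1, but those of day 7 set slide 4 against slide 3. At day 7, ATRA and slide therefore cannot be told apart. Over the 4 pairs the members' median was -0.09 with 25 of 36 lower (49.3% of all genes), and no member passed. At an unadjusted p under 0.05 there was no member in either direction (5.81% of all genes). Elovl2 alone was lower in all 4 pairs (7.10% of all genes) and none was higher in all 4 (6.83%). Fasn differed by -0.95 (SE 0.55, adjusted p = 0.877 by limma) and Srebf1 by -0.56 (SE 0.24, adjusted p = 0.861), each lower in 3 of 4 pairs. The pair medians were -0.10 without and -0.45 with DEN at day 2, and -0.05 and 0.23 at day 7. Without the ATRA+DEN and DEN pair of day 2 the median was 0.03, and with the day-7 arrays grouped by labelled treatment -0.19. With slide as block it was -0.21, a value that rests on slide 1, and so on day 2, alone.

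The combination did not look the same on both days. The DEN by ATRA difference, which is the DEN difference with ATRA minus that without, had a median of -0.45 over the members at day 2 and 0.28 at day 7, against 0.04 on each day for all genes. At day 2 it was negative for 27 of 36 members (46.2% of all genes). At day 7 it was positive for 28 and negative for 8 (46.1% of all genes). Lower on both days were 6 members (19.2% of all genes) and higher on both 7 (26.9%). Averaged over the days its median was -0.05, and no member passed. Acsl3 alone had an unadjusted p under 0.05 (3.61% of all genes), at 0.86 (SE 0.27, adjusted p = 1 by limma).

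At day 7 the array titled ATRA+DEN was the highest of the 12 for 8 members (6.48% of all genes). Fasn stood at 2.91 in vehicle, 2.12 in ATRA, 2.02 in DEN and 2.90 in ATRA+DEN, with the last level with vehicle. Aacs stood at 5.69, 5.87, 5.00 and 6.16, and Scd1 at 7.11, 6.46, 6.49 and 7.06. Srebf1 followed at 3.02, 2.31, 2.76 and 3.01, where both single agents were below vehicle and the combination was not. In the array titled ATRA+DEN, Fasn was 6.72-fold and Aacs 19.8-fold above the ATRA+DEN array of day 2, and 33 of 36 members were higher and 3 lower at day 7 (43.9% of all genes were lower). The titles of the treated day-7 arrays are those in dispute, and vehicle lies on another slide than ATRA and ATRA+DEN.

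The siRNA arrays of day 7 stood apart in most of the pathway other than triglyceride assembly. On slide 4, both siRNA arrays lay below both the ATRA and the ATRA+DEN array for 21 of 36 members, where 27.3% of all genes did. Both lay above for 6 members (26.8% of all genes), which were Agpat3, Dgat1, Dgat2, Lpin1, Lpin2 and Pklr. The members' median difference was -0.50, against 0.00 for all genes, and 11 were lower by 2-fold or more (6.69% of all genes). By role, the median was -1.70 in chain synthesis, where all 4 genes were lower. In triglyceride assembly it was 0.05, with 6 of 9 genes higher and 3 lower. The dispute over titles concerns which of the other 2 arrays had which agent, not the siRNA arrays, so these counts are the same under either label. A vehicle array is not on this slide, and the comparison differs in treatment as well as in siRNA. Cdkn1a stood at 5.56 and 6.82 in these siRNA arrays against 2.84 in ATRA and 6.62 in ATRA+DEN, and Cyp26a1 at 0.92 and 1.55 against 7.10 and 4.34.

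By the mean difference on slide 4, the lowest of the members were Aacs (-2.99), Fasn (-2.65), Elovl6 (-2.37) and Acacb (-2.19), beside Pnpla3, which was not well above background on 3 of the 4 arrays. Fasn stood at 0.02 with control siRNA and -0.31 with G0s2 siRNA, against 2.12 and 2.90 in ATRA and ATRA+DEN of the same slide, a 6.27-fold difference. Aacs stood at 3.21 and 2.84 against 5.87 and 6.16, or 7.95-fold lower. Acacb stood at 2.76 and 2.32 against 4.89 and 4.56, or 4.55-fold lower, and Elovl6 at 2.72 and 2.26 against 5.05 and 4.67, or 5.17-fold lower. In each of these 4 genes the siRNA arrays of day 7 lay below every other day-7 array. The genes were picked by their low siRNA values, and the share of all genes with this order was not counted. Acly stood at 5.25 and 5.10 against 6.26 and 6.82, and Elovl1, an elongase of saturated and monounsaturated chains, at 6.01 and 5.85 against 7.11 and 6.98. Srebf1 stood at 1.79 and 1.69 against 2.31 and 3.01, and Mlxipl at 5.86 and 5.38 against 6.95 and 6.42.

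Lpin1, a phosphatidate phosphatase that also acts as a transcriptional coactivator in liver (chromosome 12, 16543695 to 16543754, mm9), went the other way. It stood at 4.00 with control siRNA and 4.26 with G0s2 siRNA at day 7 and between -0.70 and 1.72 on the other 10 arrays. The difference on slide 4 was 2.95 on the log2 scale. Scd1 did not follow Fasn here, at 7.68 and 6.98 against 6.46 and 7.06. Pnpla3 was not well above background with either siRNA at day 7, against 3.36 and 2.11 at day 2, a difference of at least 174-fold with control siRNA and at least 57.0-fold with G0s2 siRNA. The 174-fold value is the measured ratio and rests on a level not well above background. In the ATRA array of day 7, Pnpla3 was not well above background either.

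**Figure D4:**
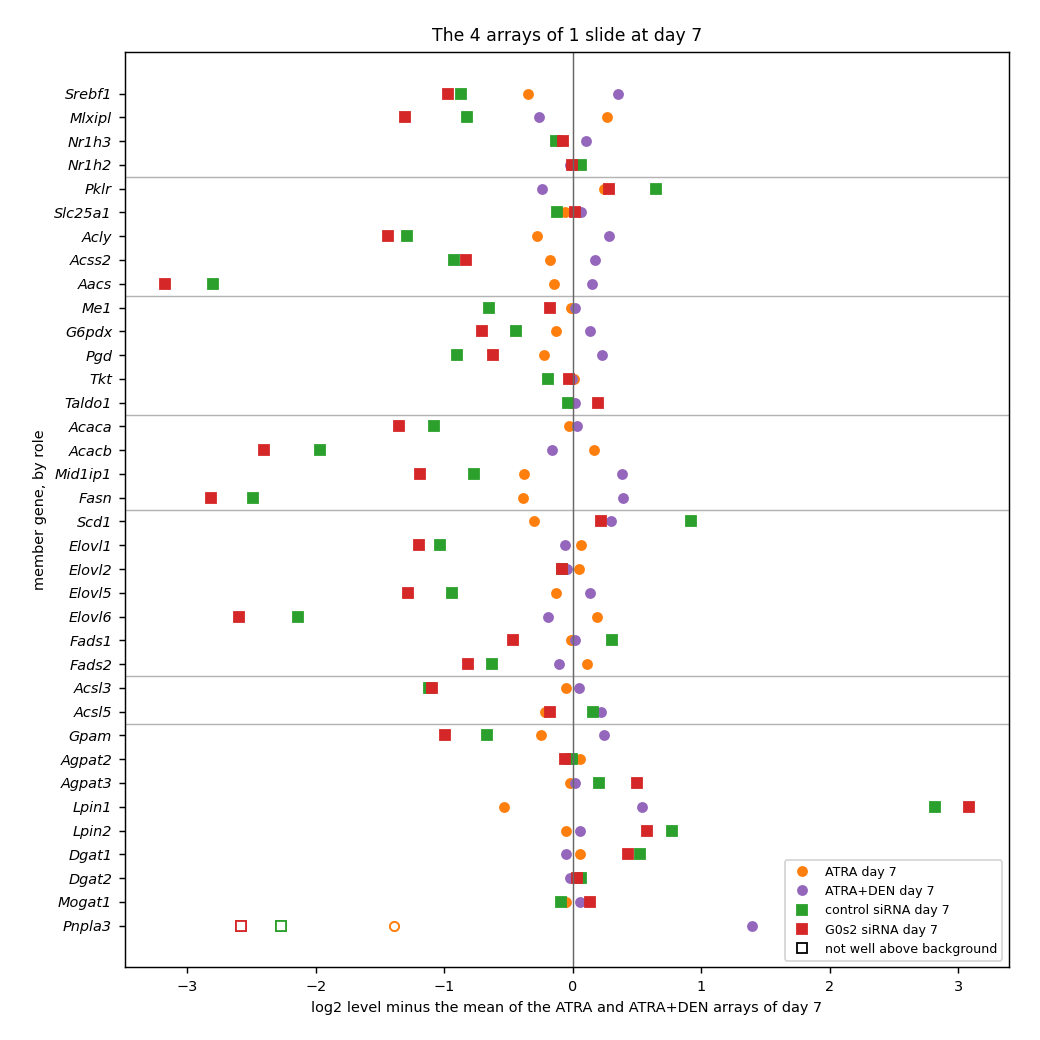
The 4 day-7 arrays of slide 4, each as log2 level minus the mean of the ATRA and ATRA+DEN arrays, for the 36 genes in rows by role. Squares of both siRNA arrays lie left of both circles for 21 genes, with Aacs at a mean difference of -2.99 and Fasn at -2.65, and lie right of them for 6 genes, with Lpin1 at 2.95.

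Markers of other cells on the same slide were as follows. Red cell markers summed to 501 and 531 in the siRNA arrays against 85.7 and 137 in ATRA and ATRA+DEN. Among these, Hbb-b1, Hba-a1 and Hba-a2 differed by 3.61, 3.46 and 2.93, and Alas2 by -1.24. Kupffer cell markers summed to 79.7 and 45.1 against 86.6 and 73.2, endothelial markers to 127 and 126 against 96.0 and 85.1, and hepatocyte markers to 5370 and 6430 against 5970 and 5380. Pancreatic acinar markers summed to 18.3 and 26.8 against 7.59 and 6.60, and stellate cell markers to 8.10 and 7.29 against 15.6 and 10.3. Of the acinar markers, Amy2a5 stood at 3.90 and 4.53 against 2.10 and 1.99, and Cel at -2.78 and -3.20 against -2.08 and -2.16. Cela3b, Cpa1, Cpb1, Pnlip and Prss2 were well above background on none of these arrays. Of the stellate markers, Lrat stood at -0.11 and 0.12 against 2.46 and 1.51, and Col3a1 at 2.19 and 1.67 against 2.66 and 2.13. The part of red, endothelial, acinar and stellate cells in the result was not tested.

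The siRNA against G0s2 itself was compared with control siRNA at each day. The members' median was -0.16 over the 2 pairs, with 26 of 36 lower, where the median of all genes was 0.06 and 40.2% were lower. Lower in both pairs were 16 members (20.7% of all genes), among them Fasn (-0.25 and -0.33), Scd1 (-0.31 and -0.70), Elovl6 (-1.03 and -0.46) and Aacs (-0.93 and -0.37). Higher in both were 5 members (36.4% of all genes), namely Agpat3, Lpin1, Nr1h3, Slc25a1 and Taldo1. By limma no member passed. At an unadjusted p under 0.05 (6.78% of all genes) there were 2, Fads1 at -0.60 (SE 0.24, adjusted p = 0.697) and Agpat3 at 0.41 (SE 0.15, adjusted p = 0.697). Kupffer cell markers, all 9 above background, summed to 225 with control and 134 with G0s2 siRNA at day 2 and to 79.7 and 45.1 at day 7, and their part was not tested.

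Between the days, 9 members passed limma over the 6 treatments, 8 of them higher at day 7 (26.3% of all genes) and 1 lower (20.5%). Slc25a1 rose by 1.35 (SE 0.15, adjusted p = 0.000879 by limma), higher in 6 of 6 pairs. It stood between 3.69 and 4.51 at day 2 and between 5.29 and 5.68 at day 7. Lpin1 rose by 1.92 (SE 0.36, adjusted p = 0.00536), and Dgat1 and Dgat2 by 0.78 (SE 0.13, adjusted p = 0.00332) and 0.66 (SE 0.12, adjusted p = 0.00453). Agpat2, which acylates lysophosphatidate, rose by 0.49, Nr1h2 and Taldo1 by 0.40 each and Nr1h3 by 0.32, and Acsl3 fell by 0.69 (SE 0.22, adjusted p = 0.0386). The calls of Agpat2, Nr1h2, Nr1h3 and Taldo1 ended under quantile normalization, with values of 0.20, 0.15, 0.04 and 0.12. That of Acsl3 ended without any pair but ATRA+DEN (adjusted p = 0.0546 to 0.098 by limma), with the day-7 arrays grouped by labelled treatment (0.0916) and with no filter on dim probes (0.055), and that of Nr1h3 without any pair but G0s2 siRNA (0.0505 to 0.0873).

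The members' median between the days was 0.15, against 0.11 for all genes, and it turned to -0.13 under quantile normalization, where that of all genes was 0.03. The single treatments differed in direction. It was 0.83 for ATRA+DEN, -0.41 for control siRNA and -0.48 for G0s2 siRNA, and between -0.07 and 0.24 for vehicle, ATRA and DEN. Without the ATRA+DEN pair the median was -0.11 and 14 members passed, where 8213 of the 21238 genes tested did.

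Of 14 members with other probes well above background on at least 2 arrays, 17 such probes were compared with the brightest probe. The sign matched in 14 of 17 for the difference of siRNA and other arrays on slide 4 and in 15 of 17 for ATRA+DEN against vehicle at day 2. Fasn, Aacs, Elovl6 and Scd1 have 1 probe each. The other Lpin1 probe, above background on 3 arrays, differed by 3.67 on slide 4 against 2.95 by the brightest, and the other Acacb probe by -2.19, the same value. The other Pnpla3 probe, dimmer and above background on 6 arrays, differed less. It gave -0.64 on slide 4 against -2.42, and -1.42 for ATRA+DEN against vehicle at day 2, where the brightest gave -4.23. Between the days it gave -2.13 against -3.46.

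Genes of the pathway outside the 36 were taken from 3 lists, none of which had a member that passed for DEN, ATRA, G0s2 siRNA or the DEN by ATRA difference. Of 26 other lipogenic and triglyceride enzymes tested, 15 were lower with DEN (54.2% of all genes), with a median of -0.12 against -0.02 for all genes. Thrsp, the lipogenic protein Spot 14, stood at 8.27, 7.13, 6.88 and 4.90 in vehicle, ATRA, DEN and ATRA+DEN at day 2, and at 6.07 and 6.35 in the siRNA arrays of day 7 against 7.62 and 7.61 in ATRA and ATRA+DEN. It was lowest in the combined day-2 array, as was Fasn among the arrays of slide 1. Thrsp does not stand for its list, which went both ways. On slide 1, Gpat2 stood at -0.69 in vehicle and 0.45 in ATRA+DEN. On slide 4, Pgls was higher by 0.66 in the siRNA arrays. Of 25 regulators, 18 were lower with DEN (median -0.14). Insig1, which holds SREBP proteins in the endoplasmic reticulum and is itself an SREBP target, stood at 3.87, 3.19, 3.17 and 1.66 on slide 1, and at 0.82 and 0.83 against 2.86 and 3.41 on slide 4. Its lows were thus in the same arrays as those of Fasn.

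Of 12 other LXR targets, 6 were lower with DEN (median -0.04). On slide 4 these targets went both ways, from -0.68 to 2.05, and the largest differences were higher in the siRNA arrays. Abcg8 and Abcg5, the sterol export pair, were higher there by 2.05 and 1.55, and Mylip, a ligase that degrades the LDL receptor, by 1.50. Between the days, 10 of the 26 enzymes rose and 1 fell, 9 of the 25 regulators rose and 1 fell, and 1 LXR target rose and 2 fell, where 26.3% of all genes rose and 20.5% fell. Elovl3, a fatty acid elongase, rose by 2.19 (SE 0.62, adjusted p = 0.0238 by limma), and Usf2, a factor that binds E-boxes, by 1.38 (SE 0.19, adjusted p = 0.00193).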

How the data were processed

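Liver RNA of 12 mouse groups was hybridised to 1-colour (Cy3) Agilent arrays, 1 array per group. The deposited array files hold background-subtracted processed intensities of Agilent Feature Extraction, version 10.7.1.1 per the file headers and 9.5.1.1 per the submitters' processing notes, with probe positions on mm9. The deposited table of the authors' normalized intensities, whose sorted values were equal within each day, served as an alternative within a day only. Control spots and outlier flags were left out, spots of a probe were averaged, and log2 intensities were set against the array's 75th percentile. A gene, named by the array files, was represented by its brightest probe and tested if 2 or more of the 12 arrays had that probe well above background. limma 3.58.1 (R 4.3.3) gave effects over pairs of arrays: DEN and G0s2 siRNA from 12 arrays and ATRA from 8, each with the pair as block, the DEN by ATRA difference with slide as block, and day with treatment as block. P-values were adjusted by Benjamini-Hochberg over 21238 genes at 0.05. The fits were tested on simulated data. The number of arrays limits the precision. Alternatives were normexp background (offset 50), quantile normalization, other filters and probes, the authors' values, other blocks, the disputed day-7 labels, and each pair left out in turn.

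All 36 members could be named, and from each of 3 pathway lists up to 4 tested genes with the largest effect in a comparison. The members and lists were chosen with earlier results of these data known. P-values measure only the spread between these arrays.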

Additional observations from a re-analysis of the deposited data

Results flagged for a closer look

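The DEN by ATRA difference, which sets the DEN difference with ATRA against that without, went opposite ways on the 2 days over the 36 genes, with a median of -0.45 at day 2 and 0.28 at day 7, a gap of 0.73. Opposite signs on the days were found in 23 of the 36 genes and in 53.9% of all genes tested. Among the 23 were Srebf1, Acly, Aacs, Fasn, Scd1 and Elovl6, negative at day 2 and positive at day 7. The day-7 values rest on the disputed titles. By the labelled treatment, Srebf1 and Acly would be negative at day 7 too. The median averaged over the days was then -0.11, against -0.05 by title. Each day has 1 such difference, from 4 arrays, so the gap between the days was not tested.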

How the results depend on the processing

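The counts over slides 1 and 4 were recomputed under quantile normalization, normexp background and the authors' values, an addition made after seeing the data, and lay at 23 to 25 for ATRA+DEN lowest on slide 1 and at 22 to 23 for both siRNA arrays below on slide 4. Of the medians over the members, that of DEN kept its sign under each alternative run, from -0.32 to -0.07. That of ATRA was -0.09 and turned to 0.03 when the ATRA+DEN and DEN pair of day 2 was left out, with a range of -0.15 to 0.03 over the left-out pairs. For ATRA it was -0.19 by the labelled day-7 treatment and -0.21 with slide as block, which rests on day 2 alone. That of G0s2 siRNA was -0.22 under quantile normalization, -0.21 with the authors' values, and -0.18 and -0.15 with 1 pair left out, against -0.16. That of the DEN by ATRA difference was 0.28 without day 2 and -0.45 without day 7, and with 1 day there is no test. That of day turned to -0.13 under quantile normalization and to -0.11 without the ATRA+DEN pair. The cause of these turns was not tested. Over the left-out pairs the median for day ranged from -0.11 to 0.21. Between 7 and 14 members passed there, and between 8129 and 9231 of the 21238 genes tested. By limma, no member passed for DEN, ATRA, G0s2 siRNA or the DEN by ATRA difference under any alternative run. Over all genes, normexp gave 13 calls for DEN and 4 for G0s2 siRNA, the fit without the pair block 11 for DEN, and the fit without the day-2 siRNA pair 1 for G0s2 siRNA. Leaving out the pair that holds the vehicle array of day 2 gave medians of -0.18 for DEN and -0.11 for ATRA.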
